A study of Schizosaccharomyces pombe with 127 samples.

Results

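The strains described here are labelled as deletions of cmk1, cmk2 or srk1. These genes encode protein kinases of fission yeast (Schizosaccharomyces pombe) that act downstream of calmodulin or of the stress MAP kinase. The strains were picked by the strain name in the array title, which gives 6 of the 127 arrays. Each of the 3 strains has 1 array during growth in minimal medium with nitrogen (0 min) and 1 array after 60 min without nitrogen. They were compared with the other deletion strains of the series, most of which also lack a protein kinase gene (60 strains at 0 min and 59 at 60 min), and the wild type has 1 array at each time. On each array the RNA of a strain, labelled Cy5, was hybridised against a pool of wild-type RNA labelled Cy3, so a value is the ratio of a strain to that pool. All values below are log2 ratios after setting the median of each array to 0, averaged over the probes of a gene, and a deviation is the value of a strain minus the mean of the other deletion strains at the same time. Nothing in the sources used here gives the deletion construct, the mating type or the auxotrophies of the strains.

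Calmodulin binds calcium and switches on calmodulin-dependent protein kinases and the phosphatase calcineurin. Cmk1 and Cmk2 belong to this kinase family, and Cmk2 is also a substrate of Sty1, the stress MAP kinase of fission yeast. Srk1 is a MAPK-activated kinase that binds Sty1 and restrains entry into mitosis by phosphorylating the phosphatase Cdc25. Loss of nitrogen makes fission yeast repress ribosome synthesis, induce transporters for other nitrogen sources and autophagy, and prepare for mating.

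The deletion showed plainly in the cmk1 strain and in neither array of the srk1 strain. In the cmk2 strain the cmk2 transcript was the lowest of all deletion strains only at 60 min, where it lay less than 2-fold below the mean of the others. In the cmk1 strain the cmk1 transcript stood at -2.49 at 0 min and -2.08 at 60 min, against -0.12 ± 0.20 (SD, n = 62) and 0.94 ± 0.28 (SD, n = 61) in all other deletion strains. Both values were the lowest of all deletion strains, at each of the 2 probes, and the next lowest strains stood at -0.48 and 0.40. In the cmk2 strain the cmk2 transcript stood at -0.25 at 0 min, where 12 of 62 other strains were lower, and at -0.65 at 60 min, where none was lower and the next stood at -0.26. At probe 2 the 60 min value was -0.75, close to the next lowest strain, lsk1, at -0.63. The deviation at 60 min was -0.90, short of 2-fold. The mean of the other strains was -0.03 ± 0.23 (SD, n = 62) and 0.25 ± 0.22 (SD, n = 61), so the 0 min array labelled cmk2 lay within their spread at its own gene. In the arrays labelled srk1 the srk1 transcript stood at -0.23 at 0 min, with 32 of 62 other strains lower, and at 1.05 at 60 min, with 7 of 61 lower. The other strains had -0.20 ± 0.30 (SD, n = 62) and 1.42 ± 0.34 (SD, n = 61), so the probes do not show the deletion named by this label. Whether the 2 srk1 probes lie inside the deleted part is not given in the sources used here. The directions below refer to the arrays as labelled, for srk1 and for cmk2. None of the 3 genes on either side of each deleted gene deviated by 1 or more at either time, and the largest deviation among them was that of mug150, the neighbour of srk1, at 0.67 at 0 min.

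**Figure D1:**
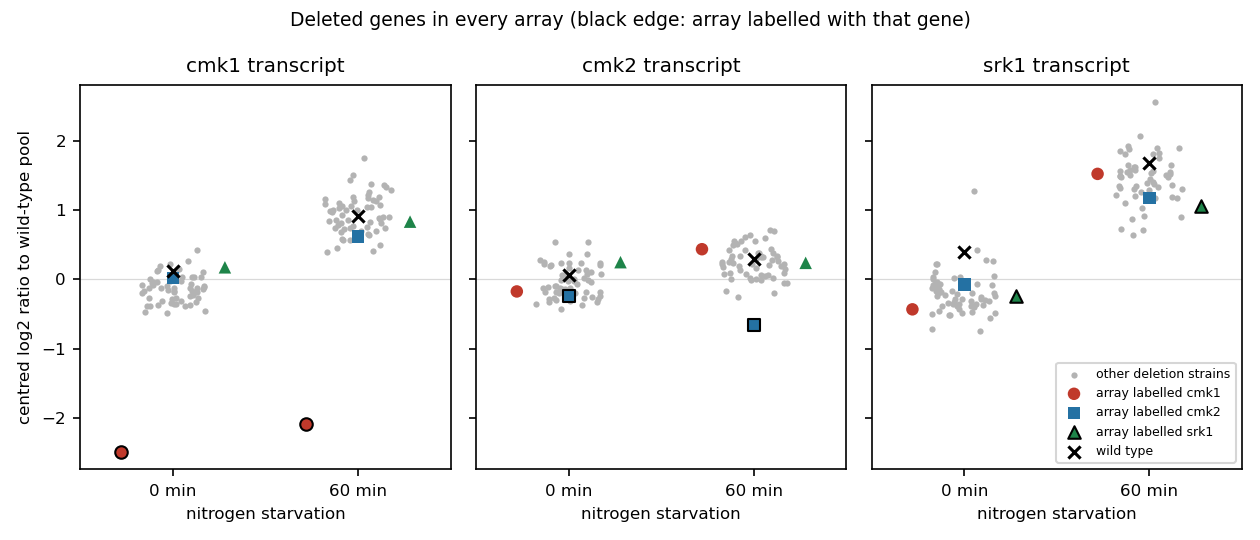
Centred log2 ratio to the wild-type pool (vertical axis) of the cmk1, cmk2 and srk1 transcripts at 0 and 60 min (horizontal axis), with 1 point per array. Coloured symbols are the arrays labelled cmk1, cmk2 and srk1, grey points the other deletion strains and crosses the wild type; the cmk1 arrays lie at -2.49 and -2.08, far below the rest, whereas the arrays labelled srk1 lie among the grey points.

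Each of the 3 strains differed from the other deletion strains at few genes. A single strain has 1 array per time and no replicate, so a gene was counted where its deviation reached 1 (2-fold), without a test. At 0 min 27 of 4929 genes (0.548%) passed this limit in the cmk1 strain, all of them lower than in the other strains. The count was 3 (0.0609%) in the cmk2 strain and 15 (0.304%) in the srk1 strain, 10 of them higher. At 60 min it was 9 (0.183%) in the cmk1 strain, 18 (0.365%) in the cmk2 strain and 9 (0.183%) in the srk1 strain. The same count over the 59 other strains with both arrays had a median of 15 at 0 min (range 0 to 598) and 40 at 60 min (range 3 to 312), so all 3 strains lay under the median at 60 min. The wild-type arrays, set against the same deletion strains, held 24 and 20 such genes.

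Few genes deviated in the same direction at both times. The count was 2 (0.0406%) in the cmk1 strain, 1 (0.0203%) in the cmk2 strain and 0 (0%) in the srk1 strain, with a median of 3 and a range of 0 to 144 in the other strains. For the 60 minus 0 min difference 30 genes (0.609%) deviated by 1 or more in the cmk1 strain, 19 (0.385%) in the cmk2 strain and 52 (1.05%) in the srk1 strain, against a median of 50 (range 6 to 640). The deviations at 0 and 60 min of a strain were correlated across the 4929 genes with r = 0.38 for cmk1, 0.34 for cmk2 and 0.01 for srk1, and the other strains had a median of 0.33 (range -0.39 to 0.70). Genes are not independent replicates, and these correlations are given as a description. The SD of the deviations over all genes was 0.25 and 0.21 in the cmk1 strain, 0.17 and 0.28 in the cmk2 strain and 0.33 and 0.22 in the srk1 strain at 0 and 60 min, so the srk1 strain stood farther from the others at 0 min and nearer at 60 min.

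**Figure D2:**
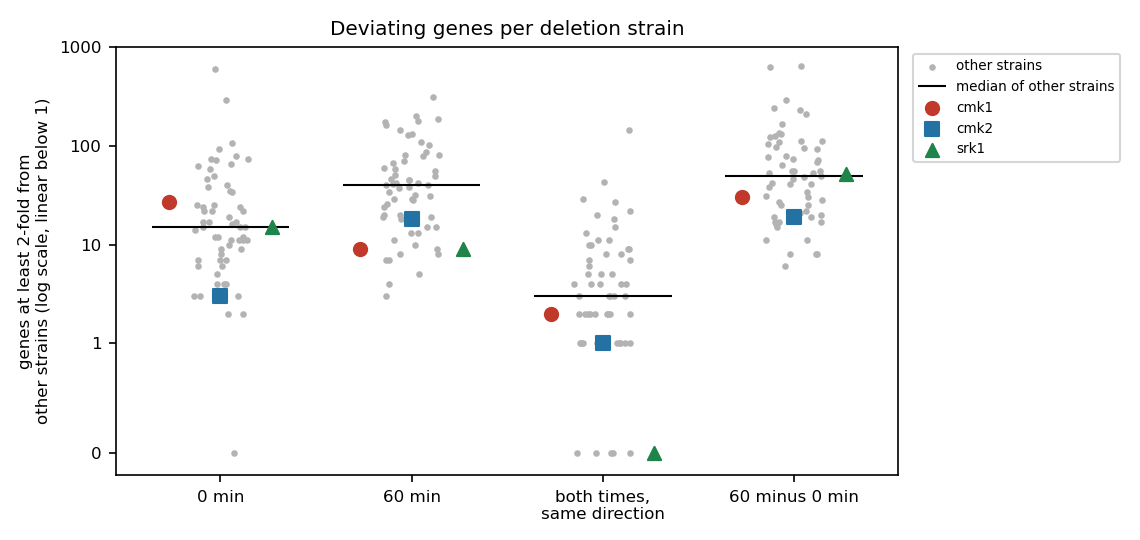
Number of genes at least 2-fold from the other deletion strains (vertical axis, log scale above 1 and linear below) for each strain at 0 min, at 60 min, at both times in one direction, and for the 60 minus 0 min difference. Grey points are the 59 other strains with both arrays and black lines their medians (15, 40, 3 and 50); the cmk1, cmk2 and srk1 strains lie at or below these lines except cmk1 at 0 min (27) and srk1 for the difference (52).

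The cmk1 strain carried low rsv1 at both times, beside cmk1 itself. The transcript of rsv1, a zinc-finger transcription factor known for survival in stationary phase, stood at -1.65 at 0 min and -0.79 at 60 min. Among the other strains its lowest, median and highest values were -2.0, -0.02 and 1.27 at 0 min and -0.96, 0.47 and 1.89 at 60 min. The deviations were -1.58 and -1.09, with 1 deletion strain lower at 0 min and 3 at 60 min, and both probes went the same way. After quantile normalization rsv1 no longer passed at both times. The gene varied widely in the series, where its SD over the other strains at 0 min (0.70) ranked 45 from the highest of 4929, and the wild type stood at 0.12 and 0.93. Just outside the limit lay tim8, a chaperone of mitochondrial protein import, with deviations of -1.13 and -0.89. On the high side no gene passed at both times. The nearest were SPBP22H7.04, with deviations of 0.86 and 1.75 (1.02 and 1.22 after quantile normalization, which passes), and SPAC750.08c, with 0.74 and 1.1. The gene nop56, a core protein of box C/D snoRNA particles, was above the others by 0.46 and 0.49. The ubiquitin and ribosomal protein fusion gene ubi2 was above by 0.53 and 0.88, the latter the mean of probes at 0.28 and 1.48. At 60 min SPBP22H7.04 and SPAC750.08c were also high in the array labelled srk1. There the probes deviated by 1.205 and 0.706 for SPBP22H7.04 and by 1.085 and 1.119 for SPAC750.08c.

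At single times the cmk1 strain had larger deviations. The 0 min deviations were lowest, after cmk1, for SPAC17H9.18c (-2.25) and SPAC27F1.10 (-1.70), which stood at -3.04 and -2.41. These values lay inside the range of the other strains, whose lowest were -4.51 and -2.95, and their SD over the other strains ranked 9 and 18 from the highest of all genes. At 60 min both were back near the others, with deviations of -0.37 and 0.21. The gene with the largest positive deviation at 60 min was ubi1, another ubiquitin and ribosomal protein fusion gene, at 0.29 against a median of -2.16 and a highest value of 1.09 among the other strains (deviation 2.24). Its 0 min value of 0.08 exceeded the mean of the others by 0.37, so in the cmk1 strain the 60 minus 0 min difference was 0.21, against -1.67 ± 0.75 (SD, n = 59) elsewhere. The sxa2 transcript, a carboxypeptidase that degrades the P-factor mating pheromone, deviated by -1.58 at 60 min in a gene whose SD over the other strains was 1.25. For urg1, a uracil-regulated gene strongly induced without nitrogen, the deviation of -1.59 at 60 min came from 1 probe (-3.39), while the other probe gave 0.20.

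In the cmk2 strain the gene low at both times was SPBPB2B2.06c. It stood at -0.75 at 0 min and 0.19 at 60 min, with deviations of -1.22 and -1.17. The other strains ranged from -2.03 to 3.61 around a median of 0.51 at 0 min and from -2.35 to 2.61 around 1.71 at 60 min, and 11 and 8 deletion strains were lower than the cmk2 strain. After quantile normalization no gene of this strain passed at both times. A lower rank went with smaller deviations for hsr1, a transcription factor gene, at -0.68 and -0.80, where 1 deletion strain was lower at each time. The gene for isp4, an oligopeptide transporter, deviated by -0.84 and -0.53. On the high side the largest pairs were those of rpl29, a ribosomal protein of the large subunit (0.60 and 0.57), and gpd1, a glycerol-3-phosphate dehydrogenase of the osmotic stress response (0.55 and 0.50).

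The low values of the cmk2 strain at 60 min included genes that were strongly raised by starvation in the other strains. The allantoate permease gene dal51 stood at 2.63, below every other deletion strain (lowest 2.67, median 4.08, highest 5.03), and its deviation was -1.39 at 60 min against 0.04 at 0 min. The fah2 transcript stood at 1.1, where 1 other strain was lower and the median was 3.04 (deviation -1.92, and 0.15 at 0 min). The deviations at 60 min were -1.65 for nrg1, -1.42 for mug147 and -1.01 for puc1, a cyclin gene, and at 0 min they were -0.02, 0.05 and 0.01. On the high side stood cdd1, a cytidine deaminase gene, at 3.93 (median of the others 2.71, deviation 1.44) and rpl1603, a ribosomal protein gene, at -0.96 (median of the others -2.34, deviation 1.34). The 60 minus 0 min difference of dal51 was thus 2.55 in the cmk2 strain against 3.98 ± 0.54 (SD, n = 59) in the other strains, and that of fah2 was 1.06 against 3.13 ± 0.80. Some 60 min deviations were shared with the arrays labelled srk1 or cmk1. The srk1 array had mug147 probes at -1.11 and -0.97 and rpl1603 probes at 1.6 and 1.7. The nrg1 probes deviated by -1.02 and -0.50 in the srk1 array and by -0.29 and -1.47 in the cmk1 array. In the cmk1 array the cdd1 probes deviated by 1.06 and 0.91, while those of puc1 went the other way (0.34 and 0.47).

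In the arrays labelled srk1 no gene passed 2-fold in one direction at both times. The gene ura4, of pyrimidine synthesis and a common selection marker in this yeast, stood at 0.20 at 0 min and -0.47 at 60 min, with deviations of 0.85 and 0.79. Among the other strains its lowest, median and highest values were -1.99, -0.64 and 0.36 at 0 min and -2.33, -1.22 and -0.47 at 60 min. The srk1 arrays thus lay at the upper end at both times, and the wild type stood at 0.34 and -0.82. Genes low at both times included gep4, a mitochondrial lipid phosphatase gene (-0.62 and -0.48, although its probes gave -0.10 and -0.86 at 60 min), uds1 (-0.68 and -0.48), prp40, a component of the U1 splicing particle (-0.88 and -0.45), and the retrotransposon Tf2-11 (-1.05 and -0.57), whose copies in the genome are nearly identical, so its value is uncertain.

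At 0 min alone the 3 largest positive deviations of the array labelled srk1 were in genes that also stood above all other deletion strains. In the cmk1 array of that time these 3 genes ranked 2 or 3 from the lowest of the 63 deletion strains. SPAC27F1.10 stood at 1.75 (deviation 2.46), SPAC17H9.18c at 1.14 (1.93) and trp663, a TRP-like membrane protein gene, at 1.04 (1.47), and the highest values among the other strains were 0.95, 1.12 and 0.76. At 60 min the 3 deviations were 0.56, 0.23 and 0.31. The low side at 0 min was led by cms1, a ribosome synthesis gene (-1.13), and cox13, a subunit of cytochrome oxidase (-1.05), each the lowest of all deletion strains. For the 60 minus 0 min difference the largest values of the srk1 strain were those of rpl1603, at -0.20 against -2.09 ± 0.81 (SD, n = 59), and of the rRNA processing genes ebp2 and kri1. These stood at 0.43 and 0.53, against -1.20 ± 0.59 and -1.05 ± 0.67 (SD, n = 59) in the other strains. The 0 min array labelled srk1 correlated with the other deletion arrays of that time with a median r of 0.36 across genes and with 1 of 62 below -0.3 (ppk25, -0.37), so the direction given by the dyes in the labels was kept.

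**Figure D3:**
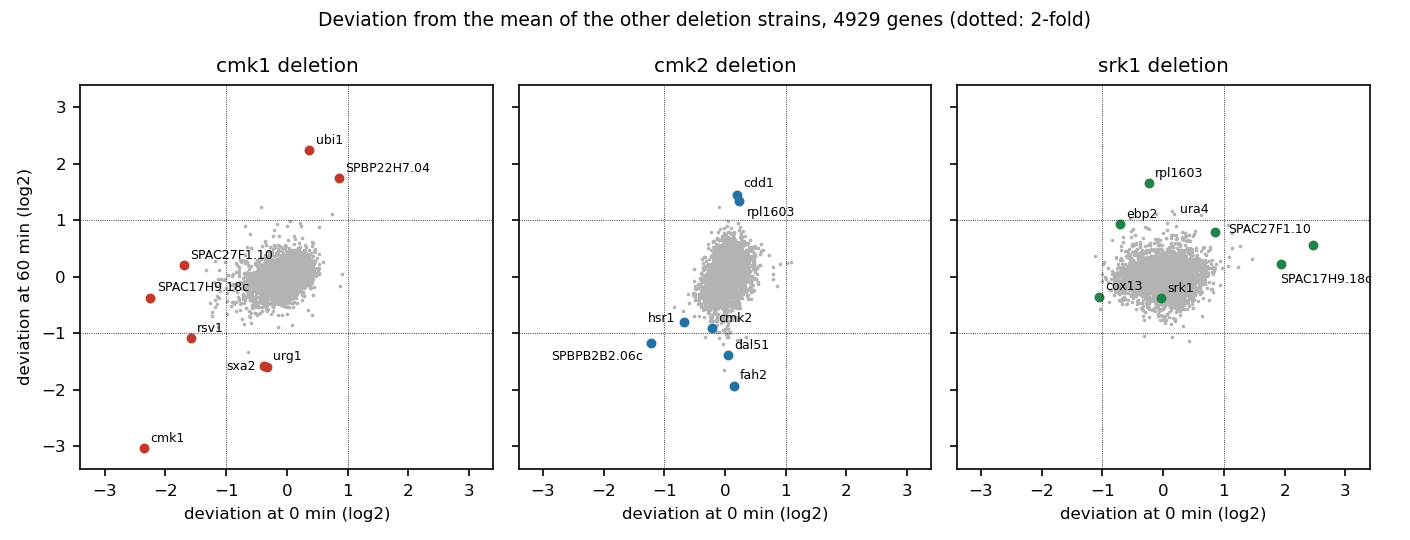
Deviation from the mean of the other deletion strains at 0 min (horizontal axis, log2) and 60 min (vertical axis, log2), with 1 point per gene for the cmk1, cmk2 and srk1 strains and dotted lines at 2-fold. In the cmk1 panel cmk1 (-2.35 and -3.02) and rsv1 lie in the lower left corner; the cmk2 cloud is narrow at 0 min with dal51 and fah2 low at 60 min; the srk1 cloud is wide at 0 min with SPAC27F1.10 at 2.46.

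The gene lists were compared by their median deviation, which stood apart from the other strains mostly at a single time. No p-value was computed for these medians. Many are given with the number of other strains whose median was lower, but not all. Over all 4929 genes the median deviation lay between -0.02 and 0.04 in every array. In the cmk1 strain 21 of 24 genes of meiosis and sporulation were below the others at 0 min (median -0.30, and -0.51 after quantile normalization), with 3 of 60 other strains lower. Their median 60 minus 0 min deviation was 0.44, with 58 of 59 other strains lower. The 25 targets of the stress response had a median of -0.33 at 0 min, with 2 of 60 other strains lower, and 0.02 at 60 min. The 22 autophagy and vacuolar protease genes had a median of -0.17 at 0 min (-0.26 after quantile normalization) and 0.08 at 60 min.

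In the cmk2 strain 24 of 25 ribosome biogenesis genes lay above the others at 60 min, with a median of 0.33 and 55 of 59 other strains lower. This median was 0.02 after quantile normalization. At the same time 17 of 22 autophagy genes lay below the others, with a median of -0.25. After quantile normalization 10 of the 22 lay above and the median was -0.04. Of the 22 nitrogen use genes 3 deviated by -1 or less at 60 min, namely dal51, the amino acid permease gene isp5 and the peptide transporter gene ptr2, at -1.39, -1.19 and -1.06. The median of that list was -0.02, and 0.03 after quantile normalization.

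In the array labelled srk1 at 0 min most lists stood high. The 126 ribosomal protein genes had a median of 0.43, above all 60 other strains, with 112 genes above 0. The median was 0.32 for the 8 selection and auxotrophy genes, above all 60 other strains, 0.42 for nitrogen use and 0.43 for iron uptake, each above 59 of 60. At 60 min the same medians were 0.05, 0.12, 0.05 and 0.09. Ribosome biogenesis went the other way at 0 min, with a median of -0.15 over 25 genes (-0.22 after quantile normalization) and 6 of 60 other strains lower. The 29 genes of mating and pheromone response went from 0.24 at 0 min to -0.12 at 60 min, and their median 60 minus 0 min deviation of -0.37 was below all 59 other strains. These signs held after quantile normalization and without centring, except that of the ribosomal proteins at 60 min, which was -0.06 after quantile normalization. Of the genes that mark the mating type, the 6 M genes had medians between -0.55 and 0.34 over the 6 arrays and the 4 P genes between -0.34 and 0.18, all inside the range of the other strains. Toward the ends of that range stood the P genes of the cmk1 strain at 0 min (-0.34, 2 of 60 other strains lower) and the 60 minus 0 min median of the M genes of the srk1 strain (-0.58, 2 of 59 lower).

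**Figure D4:**
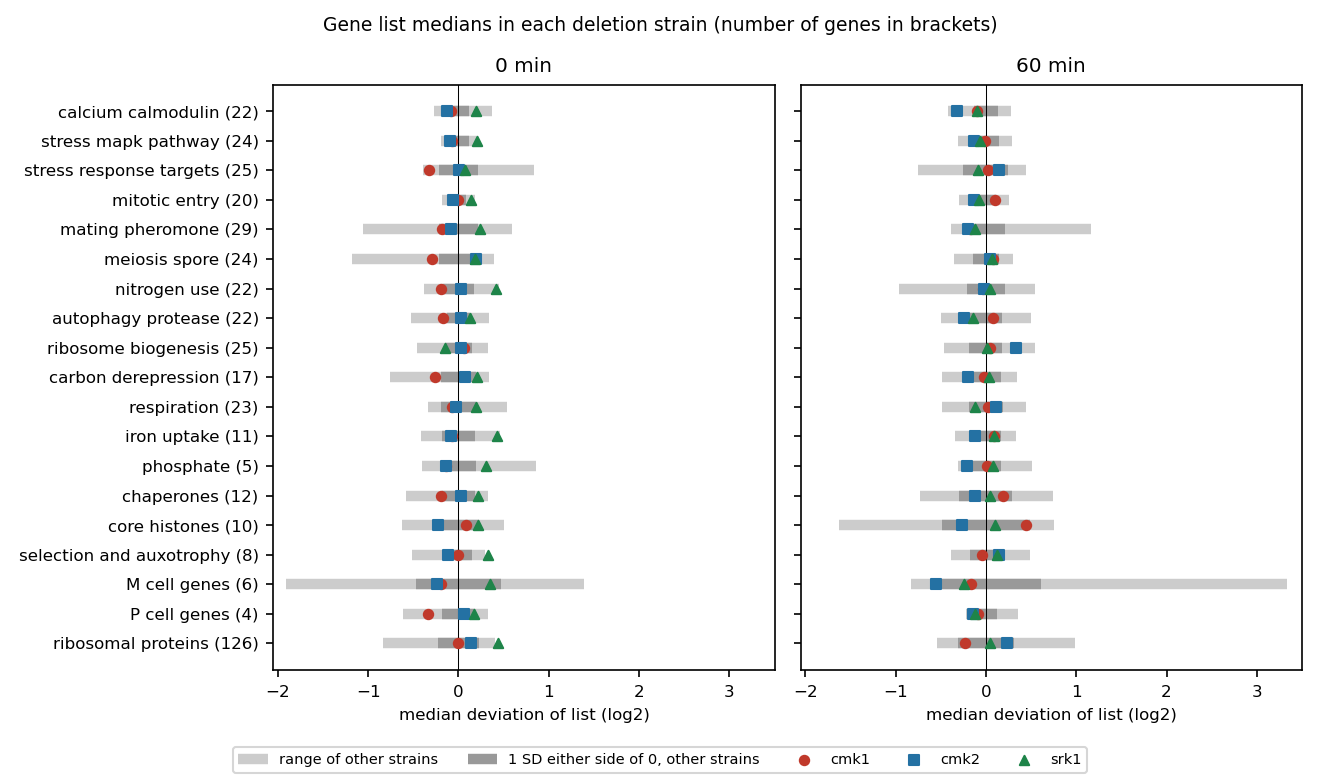
Median deviation (horizontal axis, log2) of each of 19 gene lists (vertical axis, number of genes in brackets) in the cmk1, cmk2 and srk1 strains at 0 min (left) and 60 min (right). Pale bars span the lowest to the highest of the other deletion strains and dark bars 1 SD either side of 0; the srk1 triangles lie right of 0 for most lists at 0 min (0.43 for ribosomal proteins) and close to 0 at 60 min.

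Genes of calcium and calmodulin signalling were mostly lower in the cmk2 strain at 60 min. Of the 22 genes of the list 18 lay below the other strains, the deleted cmk2 among them, with a median of -0.32 (-0.15 after quantile normalization) and 1 of 59 other strains lower, and 16 lay below at 0 min (median -0.12, and -0.34 after quantile normalization). The lists of the other strains had an SD of 0.13 at 60 min. Other lists of this array also lay mostly below, with 20 of 24 stress MAP kinase genes and 22 of 29 mating and pheromone genes. The ribosome biogenesis genes (24 of 25) and ribosomal protein genes (115 of 126) lay mostly above. The 60 minus 0 min median of the calcium list was -0.14, and 0.21 after quantile normalization. Calmodulin itself (cam1) deviated little, by -0.08 and -0.03 at 0 and 60 min in the cmk2 strain, 0.27 and 0.15 in the cmk1 strain and -0.15 and -0.09 in the srk1 strain, against an SD of 0.17 in the other strains at both times. The catalytic subunit of calcineurin (ppb1) deviated by -0.07 and 0.08 in the cmk2 strain, and prz1, the transcription factor that calcineurin activates, by -0.18 and -0.25.

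Several pumps and channels of the list had low values, though not all. At 60 min the cmk2 strain deviated by -0.45 for pmr1, a calcium and manganese pump of the Golgi (1 deletion strain lower), -0.46 for yam8, a subunit of the plasma membrane calcium channel, -0.48 for msy2 and -0.45 for msy1, mechanosensitive channels of the endoplasmic reticulum. The msy2 probes gave -0.18 and -0.77 in that array. The cation pump gene cta3 deviated by -0.98 at 60 min in a gene with an SD of 0.99 over the other strains. The channel gene cch1 deviated by -0.14 and trp663 by -0.10, while the calcium sensor gene ncs1 deviated by -0.39. In the cmk1 strain the largest deviations of the list, cmk1 left out, were those of trp663 (-1.19) and msy1 (-0.53) at 0 min, and the list medians were -0.08 and -0.10. In the srk1 strain 18 of 22 genes lay above the others at 0 min (median 0.19) and 18 below at 60 min (median -0.10). After quantile normalization 10 lay above at 60 min and the median was -0.03. The transcript of rcn1, the calcineurin regulator calcipressin, deviated by 0.38 at 0 min and -0.02 at 60 min.

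The genes of the stress MAP kinase pathway deviated by less than 0.5 in the 6 arrays, with 2 exceptions. These were cmk2 in its own 60 min array (-0.90) and cip1, which codes for an RNA-binding protein, at 0.51 in the 0 min array labelled srk1. The cip1 probes of that array gave 0.25 and 0.77. The MAP kinase gene sty1 deviated by 0.04 and -0.04 in the cmk1 strain, -0.07 and -0.10 in the cmk2 strain and 0.20 and -0.28 in the srk1 strain, where its SD over the other strains was 0.18 and 0.20. The MAPK kinase gene wis1 deviated by -0.36 at 0 min in the cmk2 strain and by 0.25 in the srk1 strain. Of the transcription factor genes, atf1 deviated by 0.33, 0.36 and 0.44 at 60 min in the cmk1, cmk2 and srk1 strains, against an SD of 0.78 that includes a strain at -3.79, and pap1 by 0.48 at 0 min and -0.33 at 60 min in the srk1 strain. Over the 24 genes the median was -0.08 and -0.01 in the cmk1 strain, -0.09 and -0.13 in the cmk2 strain and 0.21 and -0.06 in the srk1 strain, and the 60 min medians of the cmk1 and srk1 strains had the opposite sign after quantile normalization (0.0037 and 0.07). At 0 min 58 of 60 other strains had a lower median than the srk1 strain, in which 21 of 24 genes deviated above 0. For the cmk1 and cmk2 strains 19 and 12 of 60 were lower. Other lists of the 0 min array labelled srk1 also lay mostly above. These included 21 of 22 nitrogen use genes, 112 of 126 ribosomal protein genes and 25 of 29 mating and pheromone genes. Of the 25 ribosome biogenesis genes 15 lay below. Over the 24 stress MAP kinase genes the 60 minus 0 min median of the srk1 strain was -0.29 (-0.28 after quantile normalization), with 1 of 59 other strains lower. The transcripts of cmk2 and srk1 in the cmk1 strain stood at 0.43 and 1.52 at 60 min, within the range of the other strains.

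As a group of 3 against the other strains, the only gene called was cmk1, which 1 of the 3 strains lacks. The fits used limma on all 4929 genes with the strain as the unit and Benjamini-Hochberg adjustment over all genes. A p-value thus sets the difference of the means against the spread between strains, which comes mostly from the other strains. At 0 min 0 genes (0%) passed an adjusted p of 0.05 and 28 had an unadjusted p under 0.05. At 60 min 1 gene (0.0203%) passed, namely cmk1, at -2.08, 0.62 and 0.83 in the cmk1, cmk2 and srk1 strains. Its difference was -1.15 ± 0.23 (SE, limma adjusted p = 0.0315), and 125 genes had an unadjusted p under 0.05. Without the cmk1 strain the difference was -0.22 (limma adjusted p = 0.998). The call was also lost with only the other strains whose array number was under 1200 (limma adjusted p = 0.0536) and after quantile normalization (0.0596).

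The mean of both times and the 60 minus 0 min difference gave 0 genes each (0% and 0%), with 56 and 102 genes at an unadjusted p under 0.05 and smallest limma adjusted p of 0.0731 and 0.997. The genes with the largest statistics besides cmk1 are given as values, since none passed. At 60 min wtf7, of a family of meiotic drive genes, stood at 0.21, 0.26 and 0.17 in the 3 strains, against a lowest, median and highest of 0.23, 0.57 and 0.97 in the others. Its difference was -0.36 ± 0.10 (SE, limma adjusted p = 1). The sorting nexin gene mvp1 stood at 0.35, 0.30 and 0.24 at 60 min, toward the lower end of the others (0.02, 0.86 and 1.35). For the mean of both times rpl1603 stood at -0.82, -0.46 and -0.54, against -1.95, -1.28 and -0.09. For the 60 minus 0 min difference fol2, a GTP cyclohydrolase of folate synthesis, stood at -1.04, -0.53 and -0.78, against a mean of -0.40 in the others, a difference of -0.38 ± 0.12 (SE, limma adjusted p = 0.997). At 0 min sen2, a subunit of the tRNA splicing endonuclease, differed by -0.35 ± 0.11 (SE, limma adjusted p = 1), with the cmk1 strain at -0.77 from the others, the cmk2 strain at 0.01 and the srk1 strain at -0.29.

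All 3 strains responded to nitrogen starvation. Averaged over the 3 strains, 339 genes (6.88%) were at least 2-fold higher at 60 than at 0 min and 396 (8.03%) at least 2-fold lower, with a limma adjusted p under 0.05. Of these 735 genes 677 were also among the 802 called the same way in the other 59 strains. With the adjusted p alone 1217 genes (24.7%) rose and 980 (19.9%) fell. The spread in this fit was shared with the 59 other strains. The p-values and SE of the starvation change therefore do not measure the 3 strains alone. The lists described next were counted by the adjusted p alone, and over all genes the median change was 0.07.

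The autophagy and vacuolar protease genes rose almost as a whole, 21 of 22 with a median change of 0.86, and 14 of 22 passed without the cmk1 strain. Of the 10 core histone genes 9 rose (median 1.59), and 15 of 22 nitrogen use genes rose and 2 fell (median 1.92; 1 fell without the cmk1 or without the srk1 strain). Among those that rose, dal51 was higher by 4.18, 2.55 and 3.22 in the cmk1, cmk2 and srk1 strains. Of the 126 ribosomal protein genes 123 fell (median -2.89) and of the 25 ribosome biogenesis genes 23 fell (median -1.27). Of the 12 chaperone genes 9 fell and 1 rose (median -1.64). For mating and pheromone response 7 of 29 genes rose, 4 fell and 18 did not pass (median 0.17), and 2 rose without the cmk1 strain. These counts without a strain were added after seeing the data. Over all 4929 genes 15.8% rose without the cmk1 strain, 21.6% without the cmk2 strain and 20.6% without the arrays labelled srk1, against 24.7% with all 3, so fewer genes passed in general.

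Within calcium and calmodulin signalling 11 of 22 genes rose, 3 fell and 8 did not pass. In the larger group of 59 other strains 18 rose and 3 fell, and the median change was 0.43 against 0.36. The change was smaller than in the other strains for 20 of the 22 genes (2340 of 4929 over all genes), with a median difference of -0.18. After quantile normalization the median difference was 0.03, 0.21 and -0.16 in the cmk1, cmk2 and srk1 strains. Without the cmk1 strain 6 rose, and without the arrays labelled srk1 7 rose. The pump gene cta3 rose by 2.05 ± 0.53 (SE), the vacuolar calcium pump gene pmc1 by 0.87 ± 0.18 and cam1 by 0.36 ± 0.13 (SE, limma adjusted p = 0.0141). The 3 that fell were cnb1, the regulatory subunit of calcineurin (-0.79), pmr1 (-0.59) and rcn1 (-0.55), while ppb1 stood at 0.03 (limma adjusted p = 0.865). Within the stress MAP kinase pathway 12 of 24 rose, 1 fell and 11 did not pass. In the 59 other strains 20 rose and 4 fell, and the median change was 0.43 against 0.36 in the 3 strains. Without the cmk1 strain 5 rose, and without the cmk2 strain 7 rose. The largest rises were those of atf1 (2.01 ± 0.51, SE) and srk1, which rose by 1.49 (1.95 in the cmk1 strain, 1.25 in the cmk2 strain and 1.28 in the arrays labelled srk1), and the phosphatase gene ptc2 fell (-0.52), a call lost without the cmk2 strain. The MAP kinase gene sty1 differed by 0.07, 0.12 and -0.33 between the times (limma adjusted p = 0.781).

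**Figure D5:**
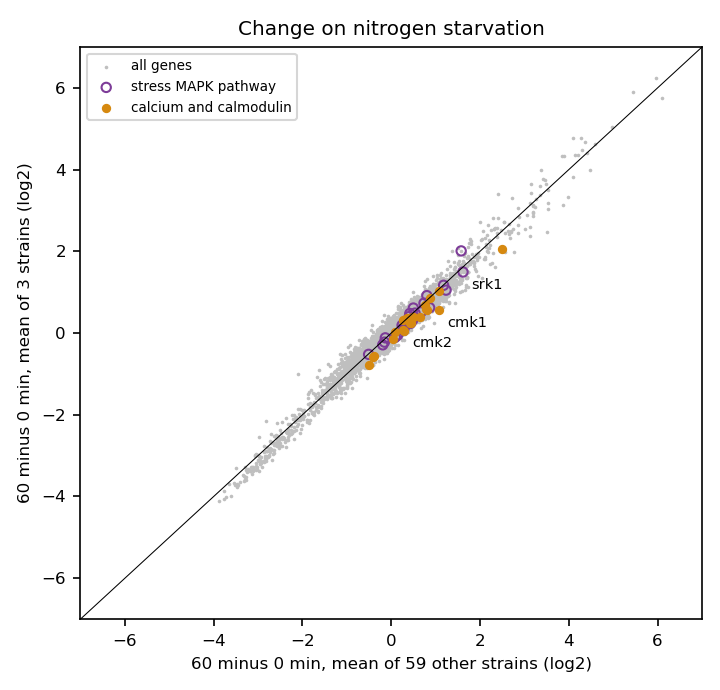
Change from 0 to 60 min of nitrogen starvation (log2) as the mean of the 59 other deletion strains (horizontal axis) and of the cmk1, cmk2 and srk1 strains (vertical axis), with 1 point per gene and the line of equal change. Calcium and calmodulin genes (filled) and stress MAP kinase genes (open) lie near the line, with 20 of 22 and 19 of 24 below it. Over all genes 2340 of 4929 lie below. The cmk1 gene, deleted in 1 of the 3 strains, is among those below.

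No difference in the size of the response was detected. Over the 802 genes called in the other strains, the change of a strain was regressed on the mean change of the others, so that 1 means a response of equal size. The slope was 1.09 in the cmk1 strain, 0.908 in the cmk2 strain and 0.991 in the srk1 strain, where 44, 10 and 25 of 59 other strains had a lower slope. The mean of the 3 was 0.996 ± 0.091 (SD, n = 3) and that of the others 0.999 ± 0.11 (SD, n = 59; range 0.652 to 1.22). The difference of -0.0036 had an exact permutation p of 0.96 (two-sided, all 37820 choices of 3 strains). After quantile normalization it was 0.13 (exact permutation p = 0.066).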

How the data were processed

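The authors deposited a table of linear ratios, Cy5 (strain) over Cy3 (wild-type pool) per the labels, for 9858 probes on 127 arrays. For their scaling and background correction, not given in the sources used here, only the values tell: array medians lay between 0.932 and 1.09, and signal over background is unknown, so the number of arrays limits the precision. The 6 ratios of 0 were set to missing. Log2 ratios were centred on the array median and averaged per gene (4816 genes named by the platform annotation and assembly ASM294v3, and 113 unnamed features).

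Limma 3.58.1 in R 4.3.3 compared the 3 strains against the others, after a test on simulated data. Python 3.11.15 gave deviations and the exact permutation test. The 0 and 60 min arrays of a strain were paired by its name. No source says that replicate cultures were grown.

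Members and lists were chosen with earlier results of these data known. Named genes: up to 10 a direction past each limit, or the 5 nearest; the 5 largest changes of each strain; all calcium and stress MAP kinase genes; 3 of each other list; and ura4 and mating genes. The genes isp5, ptr2 and mug150 were chosen after their values were seen. Of the 19 lists 15 symbols had no match. Alternatives covered centring, normalization, probes, thresholds, comparison strains and pairing.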

Additional observations from a re-analysis of the deposited data

How the results depend on the processing

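The group fits turned on the deleted gene cmk1 alone. At 0 min the count of called genes was 0 to 1 when each strain was left out, at 60 min 0 to 1 and for the mean of both times 0 to 1; each call that appeared was cmk1. At 60 min the count was 0 instead of 1 after quantile normalization, with other strains of array number under 1200, with an adjusted p under 0.01, and where both probes had to be called. The fit of the change without a replicate block (pairing by strain) called 0 genes, as did the paired fit. At 1.5-fold in place of 2-fold 17 genes deviated at both times in the cmk1 strain, 3 in the cmk2 strain and 4 in the srk1 strain. Genes past 2-fold and beyond every other deletion strain at both times numbered 1 in the cmk1 strain (cmk1) and 0 in the cmk2 strain, which also had 0 after quantile normalization. After quantile normalization the 2 genes of the cmk1 strain were cmk1 and SPBP22H7.04, not rsv1. The 735 starvation genes became 596 after quantile normalization and 652 to 821 when a strain was left out. The difference in response size was 0.13 (exact permutation p = 0.066) after quantile normalization and between -0.05 and 0.04 when a strain was left out. The causes were not tested. A single array per strain and time gives no error for a strain.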
